A study of Mus musculus with 13 samples.

Results

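The genes described here handle fatty acids once they are inside the cell: they tie them to coenzyme A, carry them into mitochondria, oxidise them in mitochondria and peroxisomes, free them again, or build the peroxisome itself. They were chosen by name, as all genes whose symbol begins with Acsl, Acsm, Acad, Acot, Acox, Acaa, Cpt1, Cpt2 or Hadh, or is Pex followed by a digit, leaving out Acadsb. A gene had to be read by a probe set that names no other gene. This gave 52 of the 18820 genes measured: 7 acyl-CoA synthetases, 3 carnitine transferases, 12 genes of mitochondrial beta-oxidation, 5 peroxisomal oxidases and thiolases, 11 thioesterases and 14 peroxins.

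Affymetrix arrays read RNA from epididymal white fat, which lies in the abdomen, of male mice aged 18 weeks. Mice of the knockout line B6.129P2-P2rx7tm1Gab/J (P2X7-/-), which had 7 generations of backcrossing to B6, had 4 arrays on high-fat diet, and wild-type C57Bl/6 mice on high-fat diet, knockout mice on chow and wild-type mice on chow had 3 each. The diets started at 6 weeks of age and lasted 12 weeks, with 60% of energy from fat in the high-fat diet and 13% in the chow. Whether 1 array stands for 1 animal, and whether the genotypes were littermates, is not in the labels, so a p-value covers only the spread between these samples. P2rx7, the targeted gene, encodes an ATP-gated ion channel. Its log2 values on high-fat diet were 8.90, 9.14, 9.14 and 9.07 in knockout mice and 9.54, 9.36 and 9.70 in wild-type mice. On chow they were 8.23, 7.90 and 8.04 in knockout mice and 8.32, 7.91 and 8.41 in wild-type mice. On this scale 1 unit is a 2-fold difference, and ± after a difference gives limma's standard error (SE). The genotype difference of P2rx7 was -0.47 ± 0.12 (limma adjusted p 0.464) on high-fat diet and -0.16 ± 0.13 (limma adjusted p 0.741) on chow. The sources used here do not place the P2rx7 probe set against the altered stretch, so these values check nothing about the genotype labels. Arrays of 1 group correlated at 0.993 to 0.998 across genes.

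In fat cells, fatty acids released from or bound for triglyceride are activated to acyl-CoA by synthetases. Carnitine transferases then pass long-chain acyl groups into mitochondria, where acyl-CoA dehydrogenases, a hydratase, a 3-hydroxyacyl-CoA dehydrogenase and a thiolase shorten them step by step. Very long, branched and dicarboxylic acyl chains are first shortened in peroxisomes, whose oxidases pass electrons to oxygen, and thioesterases in each compartment can split acyl-CoA back to free acid and coenzyme A. Peroxins insert the membrane proteins of peroxisomes, import their enzymes and drive their division, and the nuclear receptor PPARα is known to switch on many of these genes in liver.

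High-fat diet was accompanied by lower readings of more of these genes than higher ones in both genotypes. A gene counts as risen or fallen here if limma, fitted to the deposited log2 values, gave it a Benjamini-Hochberg adjusted p under 0.05, adjusted over all 18820 genes. In knockout mice 6 of the 52 rose and 19 fell, 48.1% in all, where 34.2% of all genes tested passed, 14.5% upward and 19.7% downward. In wild-type mice 9 rose and 17 fell, 50% in all, where 35.8% of all genes passed, 17.7% upward and 18.1% downward. The median log2 change was -0.11 in knockout mice and -0.15 in wild-type mice, where the medians over all genes were -0.06 and -0.03. The high-fat and chow arrays did not overlap for 33 of the 52 genes in knockout mice (9 above chow, 24 below) and for 19 in wild-type mice (8 above, 11 below). Among all genes, 43% did not overlap in knockout mice and 43.3% in wild-type mice.

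In both genotypes 6 genes rose, namely Acsl5, Cpt1a, Acoxl, Acox3, Acot11 and Pex5l. Another 14 fell in both, which were Acsm5, Acad8, Acad10, Acad11, Acads, Hadh, Acot2, Acot4, Acot6, Pex3, Pex6, Pex11a, Pex13 and Pex19. Of all genes, 12.3% rose in both and 13.5% fell in both. No gene passed in opposite directions, 6 passed in wild-type mice alone, 5 in knockout mice alone and 21 in neither. Most changes were small. Among those that passed, 3 rises and 6 falls in knockout mice and 2 rises and 7 falls in wild-type mice were at least 1.5-fold, and 2 rises and 2 falls in each genotype were at least 2-fold. The shares of all genes at these folds, in either genotype alone and in neither are not given here, so these counts are not set against other genes. Apart from a 1.5-fold minimum, the calls of 11 genes in both genotypes stood under each alternative that tested them: Acsm5, Acsl5, Cpt1a, Acad10, Acad11, Acoxl, Acot2, Acot4, Acot6, Acot11 and Pex3. Acsm5, Acad10, Acoxl and Acot11 lie below the median level of all genes and so were not tested when the fit kept only genes above it. The count of falls in wild-type mice was the least steady: it was 23 without wild-type high-fat replicate 2, 11 without wild-type chow replicate 2 and 10 without wild-type high-fat replicate 3.

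**Figure D1:**
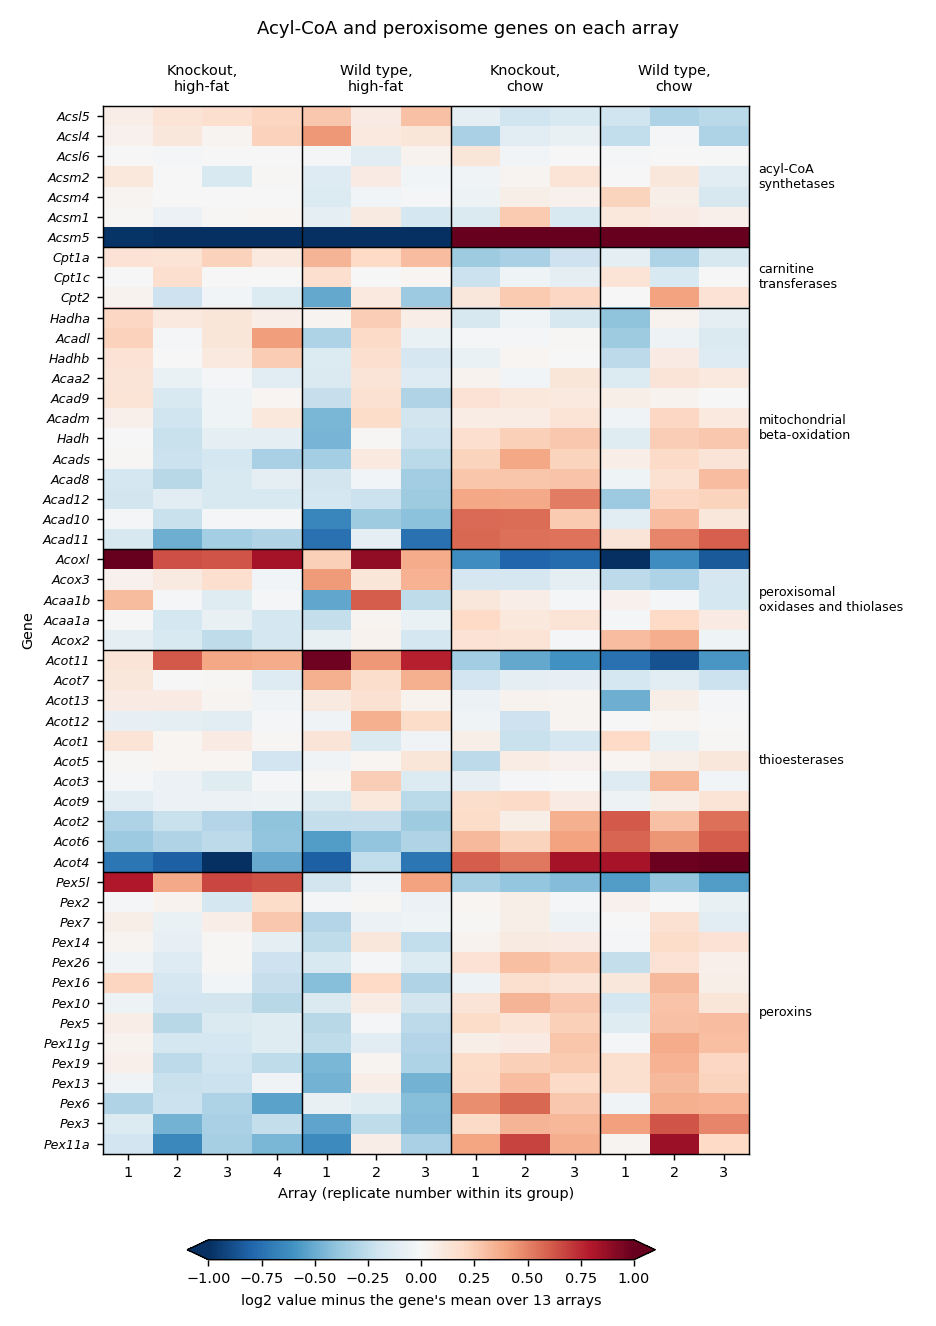
Heat map of the 52 genes (rows, grouped by role) on the 13 arrays (columns, by group). Colour gives the log2 value minus the gene's mean over all arrays and saturates at 1 in either direction. Acsm5 and Acot4 are the darkest contrasts between chow and high-fat arrays downward, and Acoxl and Acot11 upward.

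**Figure D2:**
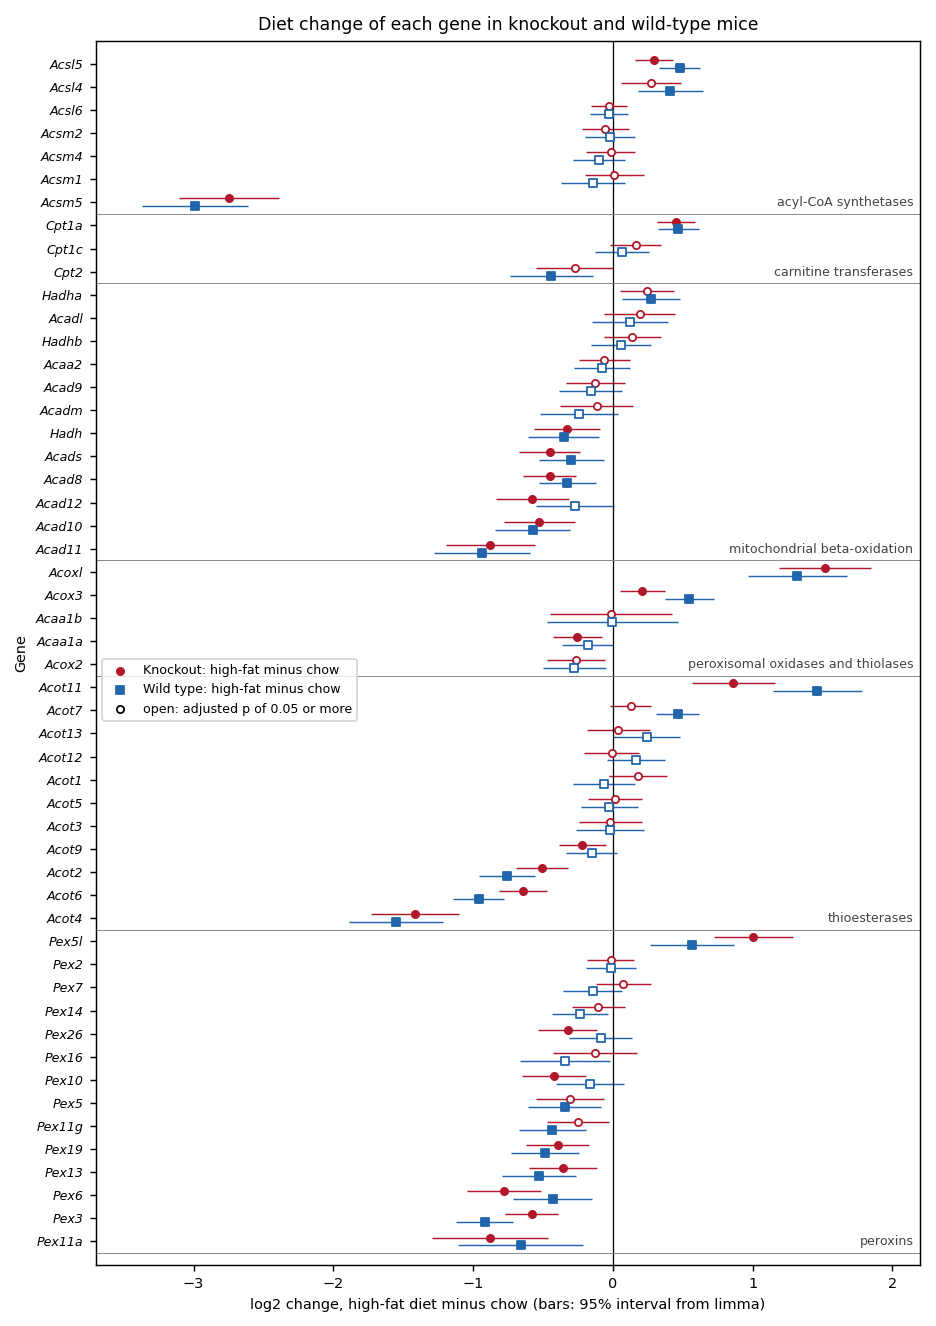
Diet change of each gene on the log2 scale, high-fat diet minus chow (horizontal axis), in knockout (red circles) and wild-type mice (blue squares), with limma's 95% intervals; filled symbols passed. Changes run from -2.75 and -2.99 for Acsm5 up to 1.52 for Acoxl in knockout mice and 1.46 for Acot11 in wild-type mice.

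Markers of several cell types moved with the same diet. Mean log2 readings of 12 adipocyte markers were 11.21 to 11.54 on the knockout high-fat arrays and 11.05 to 11.51 on the wild-type high-fat arrays, against 12.18 to 12.22 in knockout mice and 12.03 to 12.22 in wild-type mice on chow. These high levels fit the tissue's label, and 9 of the 12 fell in knockout mice and 10 in wild-type mice, while Lep, which encodes leptin, rose in both. Of 15 macrophage markers, 14 rose and Cd163 fell in each genotype, with means of 10.52 to 10.76 and 10.54 to 10.93 on high-fat diet, in knockout and wild-type mice, against 8.86 to 9.28 and 8.62 to 9.03 on chow. In such bulk tissue fewer cells of a type and less RNA per cell cannot be told apart. Hepatocyte markers had means of 5.47 to 6.49 and 5.62 to 7.29 on high-fat diet and 6.10 to 6.14 and 7.30 to 8.29 on chow, again knockout first. Of 15 such markers, Hpx rose and 2 fell on high-fat diet in knockout mice. In wild-type mice 0 rose and 10 fell by limma, and 0 and 12 at an unadjusted p under 0.05. Several of the 52 genes are highly expressed in liver. With the mean of the hepatocyte markers as a covariate, 18 of the 19 falls in knockout mice and 7 of the 17 in wild-type mice still passed, while 5 genes rose in knockout and 6 in wild-type mice. This mean was lower on every high-fat array than on every chow array in wild-type mice, and overlapped between diets in knockout mice. In wild-type mice covariate and diet therefore cannot be fully separated, and lost calls do not tie a gene to liver RNA. The share of all genes that passed with this covariate is not given here. The 7 falls in wild-type mice were Acsm5, Acad10, Acad11, Acot2, Acot4, Acot6 and Pex3. The other 10 lost the call with a larger SE each. Of these, Pex6 (now -0.38 ± 0.19), Pex11g (-0.38 ± 0.16), Acad8 (-0.30 ± 0.14), Hadh (-0.31 ± 0.17) and Pex5 (-0.29 ± 0.18) moved towards 0 by 0.02 to 0.05 on the log2 scale. Acads (now -0.06 ± 0.13), Cpt2, Pex11a, Pex13 and Pex19 moved towards 0 by 0.17 to 0.26. The rises that lost the call were Acsl4 (0.36 ± 0.16), Hadha (0.30 ± 0.14) and Pex5l (0.43 ± 0.20) in wild-type mice. In knockout mice the rise of Acox3 (0.18 ± 0.07) and the fall of Acot9 (-0.20 ± 0.08) did. The part of the adipocyte and macrophage markers in the diet changes was not tested. Skeletal muscle markers averaged 5.04 to 5.25 over all arrays, but single markers moved. Of 11, 1 rose and 3 fell in knockout mice and 1 rose and 2 fell in wild-type mice. Their log2 changes ran from -0.94 to 3.00 in knockout and from -1.63 to 2.94 in wild-type mice. Mesothelial markers fell in 8 of 8 cases in knockout and 6 of 8 in wild-type mice, and endothelial markers in 2 of 8 and 5 of 8.

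Among the 7 acyl-CoA synthetases, Acsm5 fell in both genotypes and Acsl5 rose in both, while Acsl4 passed in wild-type mice alone. Acsm5 encodes a mitochondrial synthetase for medium-chain acids, and its fall was the largest of any of the 52 genes in each genotype. Its log2 values in knockout mice were 5.56, 5.19, 5.35 and 5.00 on high-fat diet against 8.26, 7.73 and 8.08 on chow. In wild-type mice they were 4.97, 5.28 and 5.20 on high-fat diet against 7.90, 8.07 and 8.45 on chow. The diets were far apart with no overlap, and the change was -2.75 ± 0.16 in knockout mice (limma adjusted p 1.24e-07) and -2.99 ± 0.18 in wild-type mice (adjusted p 6.70e-08). That is a fold difference of 6.71 in knockout mice and 7.93 in wild-type mice. Acsm2, Acsm1 and Acsm4 follow Acsm5 directly in the gene order of chromosome 7, and none of them passed. Their diet differences lay between -0.05 (Acsm2) and 0.01 (Acsm1) in knockout mice and between -0.14 (Acsm1) and -0.02 (Acsm2) in wild-type mice. Their mean log2 levels were 3.16, 4.31 and 4.05, where the median over all genes was 6.66. A change at such low levels could go unseen. A probe set naming Acsm3 with Eri2, left out by the rule, had diet differences of -3.16 in knockout and -3.99 in wild-type mice. Another such probe set had -0.31 and -0.47.

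Acsl5, a long-chain synthetase of mitochondria and endoplasmic reticulum, read 9.38, 9.46, 9.48 and 9.53 on high-fat diet against 9.22, 9.12 and 9.17 on chow in knockout mice. The wild-type readings of Acsl5 were 9.59, 9.40 and 9.61 on high-fat diet against 9.12, 9.01 and 9.05 on chow. Every high-fat array lay above every chow array of the same genotype, with changes of 0.30 ± 0.06 in knockout mice (adjusted p 0.00254) and 0.48 ± 0.07 in wild-type mice (adjusted p 8.69e-05). Acsl4, which prefers arachidonic acid, read 8.94, 9.01, 8.93 and 9.14 on high-fat diet against 8.58, 8.80 and 8.83 on chow in knockout mice. In wild-type mice Acsl4 read 9.34, 9.001 and 9.03 on high-fat diet against 8.65, 8.88 and 8.59 on chow. The groups did not overlap in either genotype, and the change was 0.27 ± 0.10 in knockout mice (adjusted p 0.0513) and 0.41 ± 0.11 in wild-type mice (adjusted p 0.00829). The knockout change of Acsl4 passed without wild-type chow replicate 2, wild-type high-fat replicate 1 or wild-type high-fat replicate 2. For Acsl6 the diet difference was -0.03 in knockout and -0.03 in wild-type mice, and neither passed. A probe set naming Acsl3 with Utp14b, left out by the rule, had diet differences of 0.77 in knockout and 0.74 in wild-type mice.

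Of the 3 carnitine transferases, Cpt1a rose in both genotypes and Cpt2 fell in wild-type mice alone. Cpt1a, the outer-membrane enzyme that commits long-chain acyl groups to mitochondrial oxidation, read 10.81, 10.80, 10.90 and 10.76 on high-fat diet against 10.31, 10.34 and 10.45 on chow in knockout mice. In wild-type mice Cpt1a read 11.001, 10.86 and 10.97 on high-fat diet against 10.58, 10.36 and 10.50 on chow. It rose by 0.45 ± 0.06 in knockout mice (adjusted p 0.000103) and by 0.47 ± 0.07 in wild-type mice (adjusted p 0.000108), without overlap between the diets. Cpt2, which returns the acyl group to coenzyme A on the inner membrane, read 9.90, 9.65, 9.83 and 9.73 on high-fat diet against 9.97, 10.12 and 10.07 on chow in knockout mice. Its wild-type values were 9.35, 9.96 and 9.50 on high-fat diet against 9.86, 10.26 and 10.01 on chow. The diets overlapped for Cpt2 in wild-type mice and not in knockout mice, yet the change of -0.44 ± 0.14 passed in wild-type mice (adjusted p 0.0227) and the change of -0.27 ± 0.13 in knockout mice did not (adjusted p 0.121). In wild-type mice the call of Cpt2 was lost without chow replicate 2, high-fat replicate 1 or high-fat replicate 3, and in knockout mice it was gained without wild-type high-fat replicate 2. Cpt1c, a brain form found in the endoplasmic reticulum, did not pass, with diet differences of 0.16 in knockout and 0.07 in wild-type mice. A probe set naming Cpt1b with Gm44502 was left out by the rule. Its diet differences were 1.02 in knockout and 0.83 in wild-type mice, larger than those of Cpt1a.

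Of the 12 genes of mitochondrial beta-oxidation, 0 rose and 6 fell in knockout mice by limma, and 1 and 6 did so at an unadjusted p under 0.05. In wild-type mice 1 rose and 5 fell. The shares by limma over all genes were 14.5% risen and 19.7% fallen in knockout mice, and 17.7% and 18.1% in wild-type mice. Acad11, a dehydrogenase for very long chains with an added kinase-like domain, read 10.09, 9.76, 9.91 and 9.95 on high-fat diet against 10.82, 10.80 and 10.79 on chow in knockout mice. In wild-type mice Acad11 read 9.50, 10.15 and 9.50 on high-fat diet against 10.38, 10.73 and 10.84 on chow. It fell by 0.88 ± 0.15 in knockout mice (adjusted p 0.000437) and by 0.94 ± 0.16 in wild-type mice (adjusted p 0.000375), with the diets apart in both. Acad10, its relative with a similar domain structure, read 6.29, 6.08, 6.29 and 6.29 on high-fat diet against 6.87, 6.86 and 6.57 on chow in knockout mice. The wild-type values of Acad10 were 5.66, 5.95 and 5.90 on high-fat diet against 6.20, 6.62 and 6.42 on chow. Again the diets were apart in both genotypes, at -0.53 ± 0.12 in knockout mice (adjusted p 0.00335) and -0.57 ± 0.13 in wild-type mice (adjusted p 0.00264).

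Acad12 lies next to Acad10 on chromosome 5. Its values were 6.27, 6.35, 6.31 and 6.30 on high-fat diet against 6.85, 6.84 and 6.97 on chow in knockout mice. In wild-type mice Acad12 read 6.28, 6.24 and 6.10 on high-fat diet against 6.09, 6.66 and 6.68 on chow. The diets overlapped in wild-type mice, where the change of -0.27 ± 0.13 did not pass (adjusted p 0.129), and were apart in knockout mice, where Acad12 changed by -0.58 ± 0.12 (adjusted p 0.00229). Without wild-type chow replicate 1, the lowest of its group, Acad12 also passed in wild-type mice. Acad8, the isobutyryl-CoA dehydrogenase of valine breakdown, read 8.59, 8.49, 8.61 and 8.68 on high-fat diet against 9.04, 9.04 and 9.05 on chow in knockout mice. Wild-type readings of Acad8 were 8.58, 8.74 and 8.42 on high-fat diet against 8.73, 8.92 and 9.08 on chow. It fell by 0.45 ± 0.09 in knockout mice (adjusted p 0.00136) and by 0.33 ± 0.09 in wild-type mice (adjusted p 0.0154), and the wild-type call was lost without chow replicate 3 or high-fat replicate 3.

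Hadh, the short-chain 3-hydroxyacyl-CoA dehydrogenase, read 12.05, 11.82, 11.96 and 11.95 on high-fat diet against 12.21, 12.29 and 12.32 on chow in knockout mice. In wild-type mice Hadh read 11.58, 12.06 and 11.83 on high-fat diet against 11.92, 12.29 and 12.32 on chow. The fall was 0.33 ± 0.11 in knockout mice (adjusted p 0.0334) and 0.35 ± 0.12 in wild-type mice (adjusted p 0.0309), close to the threshold in both. In knockout mice the call of Hadh was lost without any 1 of the 3 chow arrays or of high-fat replicates 2, 3 and 4. In wild-type mice it was lost without chow replicates 2 or 3 or high-fat replicates 1 or 3. Acads, the short-chain dehydrogenase, changed by -0.45 ± 0.10 (adjusted p 0.00354) in knockout mice. The wild-type change of Acads was -0.30 ± 0.11 (adjusted p 0.0465), and it passed in 3 of the 13 fits that left out 1 array, those without knockout high-fat replicates 1 or 4 or wild-type high-fat replicate 2.

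Of Acadl, Acadm, Hadha, Hadhb, Acad9 and Acaa2, Hadha alone passed, in wild-type mice. Acadl, the long-chain dehydrogenase, had diet differences of 0.19 ± 0.12 in knockout and 0.12 ± 0.13 in wild-type mice, and Acadm, the medium-chain dehydrogenase, of -0.12 ± 0.12 and -0.24 ± 0.13. Hadha and Hadhb are neighbours on chromosome 5 and encode the 2 subunits of the mitochondrial trifunctional protein. Hadha had a difference of 0.24 ± 0.09 in knockout mice (adjusted p 0.0505) and rose by 0.27 ± 0.10 in wild-type mice (adjusted p 0.0407). The wild-type call of Hadha was lost without chow replicates 1 or 3 or high-fat replicates 2 or 3 of either genotype. The knockout call was gained without wild-type chow replicates 1 or 2 or wild-type high-fat replicate 2. The differences of Hadhb were 0.14 ± 0.09 and 0.06 ± 0.10. Acad9, which also helps to assemble respiratory complex I, and Acaa2, the mitochondrial thiolase, had differences of -0.13 and -0.06 in knockout mice and -0.16 and -0.08 in wild-type mice. A probe set naming Acadvl with Dvl2, left out by the rule, had diet differences of -0.34 in knockout and -0.45 in wild-type mice.

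The peroxisomal oxidases and thiolases held the largest rise of the 52 genes in knockout mice. Acoxl, an acyl-CoA oxidase-like gene, read 6.30, 5.89, 5.88 and 6.08 on high-fat diet against 4.63, 4.45 and 4.48 on chow in knockout mice. In wild-type mice Acoxl read 5.48, 6.13 and 5.62 on high-fat diet against 4.24, 4.63 and 4.41 on chow. The rise was 1.52 ± 0.15 in knockout mice (adjusted p 6.11e-06) and 1.32 ± 0.16 in wild-type mice (adjusted p 2.91e-05), 2.87-fold and 2.5-fold, with no overlap of the diets. Acox3, an oxidase for branched chains, read 8.90, 8.95, 9.02 and 8.83 on high-fat diet against 8.69, 8.69 and 8.76 on chow in knockout mice. Wild-type values of Acox3 were 9.28, 8.98 and 9.21 on high-fat diet against 8.59, 8.54 and 8.69 on chow. It rose by 0.21 ± 0.08 in knockout mice (adjusted p 0.0441) and by 0.55 ± 0.08 in wild-type mice (adjusted p 0.000121). A second, dimmer probe set of Acox3 had a diet difference of 0.11 in knockout mice (adjusted p 0.479) and 0.16 in wild-type mice (adjusted p 0.315), the same direction, and passed in neither. Its mean log2 level was 4.68, where the median over all genes was 6.66, and a change at such a low level could go unseen. The knockout call of Acox3 was also lost without wild-type chow replicate 1, wild-type high-fat replicate 3, any 1 of the 3 knockout chow arrays or knockout high-fat replicates 1, 2 or 3.

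Acaa1a, a peroxisomal thiolase that catalyses the last step of the cycle, read 7.72, 7.54, 7.64 and 7.54 on high-fat diet against 7.92, 7.83 and 7.85 on chow in knockout mice. In wild-type mice Acaa1a read 7.48, 7.75 and 7.65 on high-fat diet against 7.70, 7.92 and 7.80 on chow. The diets overlapped in wild-type mice, where the change was -0.18 ± 0.09 (adjusted p 0.122), and were apart in knockout mice, where Acaa1a fell by 0.25 ± 0.08 (adjusted p 0.0254). The knockout call was lost without chow replicates 1 or 3 or high-fat replicates 2 or 4. Its close copy Acaa1b did not pass, at -0.01 in knockout and 0.00 in wild-type mice. Whether the probes of such near copies read each other's RNA was not tested, so the split between them is uncertain. Acox2, an oxidase of bile acid intermediates, missed the threshold, with differences of -0.26 ± 0.10 in knockout mice (adjusted p 0.0517) and -0.28 ± 0.10 in wild-type mice (adjusted p 0.0531). The knockout difference of Acox2 passed without wild-type chow replicates 2 or 3 or knockout chow replicate 3, and the wild-type difference without wild-type chow replicate 3 or wild-type high-fat replicate 2.

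Among the 11 thioesterases, 1 rose and 4 fell in knockout mice and 2 rose and 3 fell in wild-type mice. Of all genes, 14.5% rose and 19.7% fell in knockout mice and 17.7% rose and 18.1% fell in wild-type mice. The 6 genes Acot2, Acot1, Acot4, Acot3, Acot5 and Acot6 are adjacent in that order on chromosome 12 and belong to 1 enzyme family whose members sit in mitochondria (Acot2), cytosol (Acot1) and, in mouse, peroxisomes (Acot3 to Acot6). Acot4, a peroxisomal thioesterase for succinyl-CoA and other dicarboxylic acyl-CoA, read 6.35, 6.25, 6.05 and 6.57 on high-fat diet against 7.67, 7.60 and 7.90 on chow in knockout mice. In wild-type mice Acot4 read 6.25, 6.82 and 6.35 on high-fat diet against 7.89, 8.05 and 8.14 on chow. It fell by 1.42 ± 0.15 in knockout mice (adjusted p 6.89e-06) and by 1.55 ± 0.16 in wild-type mice (adjusted p 4.34e-06), the second largest fall of the 52 genes in each genotype.

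Acot6 read 6.58, 6.64, 6.67 and 6.55 on high-fat diet against 7.26, 7.16 and 7.34 on chow in knockout mice. Its values in wild-type mice were 6.38, 6.54 and 6.63 on high-fat diet against 7.52, 7.38 and 7.54 on chow. Acot2 read 9.65, 9.73, 9.67 and 9.55 on high-fat diet against 10.14, 10.02 and 10.31 on chow in knockout mice. These groups did not overlap by diet, and neither did the wild-type groups of Acot2, with 9.72, 9.73 and 9.60 on high-fat diet against 10.57, 10.25 and 10.51 on chow. Acot6 fell by 0.65 ± 0.08 in knockout mice (adjusted p 3.47e-05) and 0.96 ± 0.09 in wild-type mice (adjusted p 1.51e-06). Acot2 fell by 0.51 ± 0.09 in knockout mice (adjusted p 0.000457) and 0.76 ± 0.09 in wild-type mice (adjusted p 2.25e-05). The other 3 genes of the cluster did not pass: the diet differences were 0.18 in knockout and -0.06 in wild-type mice for Acot1, -0.02 and -0.02 for Acot3, and 0.01 and -0.03 for Acot5. Acot1, Acot3 and Acot5 had mean log2 levels of 4.83, 3.63 and 4.10, where the median over all genes was 6.66. A change at such low levels could go unseen. Acot2, Acot4 and Acot6 averaged 9.96, 7.07 and 6.94. The genes of this cluster are alike in sequence, so the values of single members are uncertain as far as probes are shared.

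Acot11 (also called Them1), a long-chain thioesterase known from brown fat, read 6.03, 6.51, 6.29 and 6.27 on high-fat diet against 5.56, 5.39 and 5.30 on chow in knockout mice. In wild-type mice Acot11 read 6.87, 6.33 and 6.68 on high-fat diet against 5.15, 5.03 and 5.32 on chow. Every high-fat array lay above every chow array of the same genotype, with rises of 0.86 ± 0.14 in knockout mice (adjusted p 0.000283) and 1.46 ± 0.15 in wild-type mice (adjusted p 4.52e-06), the largest rise of the 52 genes in wild-type mice. A dimmer probe set that names Acot11 together with Fam151a was left out by the rule. Its diet differences went the other way, at -0.17 in knockout and -0.47 in wild-type mice, and no alternative used it. Of 8 brown and beige adipocyte markers, 2 rose and 0 fell by limma in knockout mice (4 and 1 at an unadjusted p under 0.05) and 5 rose and 1 fell (Ppargc1a) in wild-type mice, and their part in the Acot11 result was not tested. Ucp1, the defining brown fat gene, had a difference of 0.32 ± 0.14 in knockout mice (adjusted p 0.104) and rose by 0.54 ± 0.15 in wild-type mice (adjusted p 0.0118). Acot7, a cytosolic thioesterase known from brain, read 9.65, 9.55, 9.55 and 9.41 on high-fat diet against 9.35, 9.44 and 9.46 on chow in knockout mice. The wild-type values of Acot7 were 9.89, 9.72 and 9.89 on high-fat diet against 9.36, 9.43 and 9.32 on chow. It rose in wild-type mice by 0.46 ± 0.07 (adjusted p 0.000175) with no overlap, and the knockout change was 0.13 ± 0.07 (adjusted p 0.168). Acot9, a mitochondrial thioesterase, fell by 0.22 ± 0.08 in knockout mice (adjusted p 0.0451), against a difference of -0.15 in wild-type mice. The call of Acot9 was lost without any 1 knockout array, wild-type chow replicate 2 or wild-type high-fat replicate 1. Acot12, the acetyl-CoA hydrolase of liver, and Acot13 (Them2) did not pass, at -0.01 and 0.04 in knockout and 0.17 and 0.24 in wild-type mice. A probe set naming Acot8 with Snx21, left out by the rule, had diet differences of -0.579 in knockout and -0.345 in wild-type mice. Another such probe set had -0.0017 and 0.3747.

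**Figure D3:**
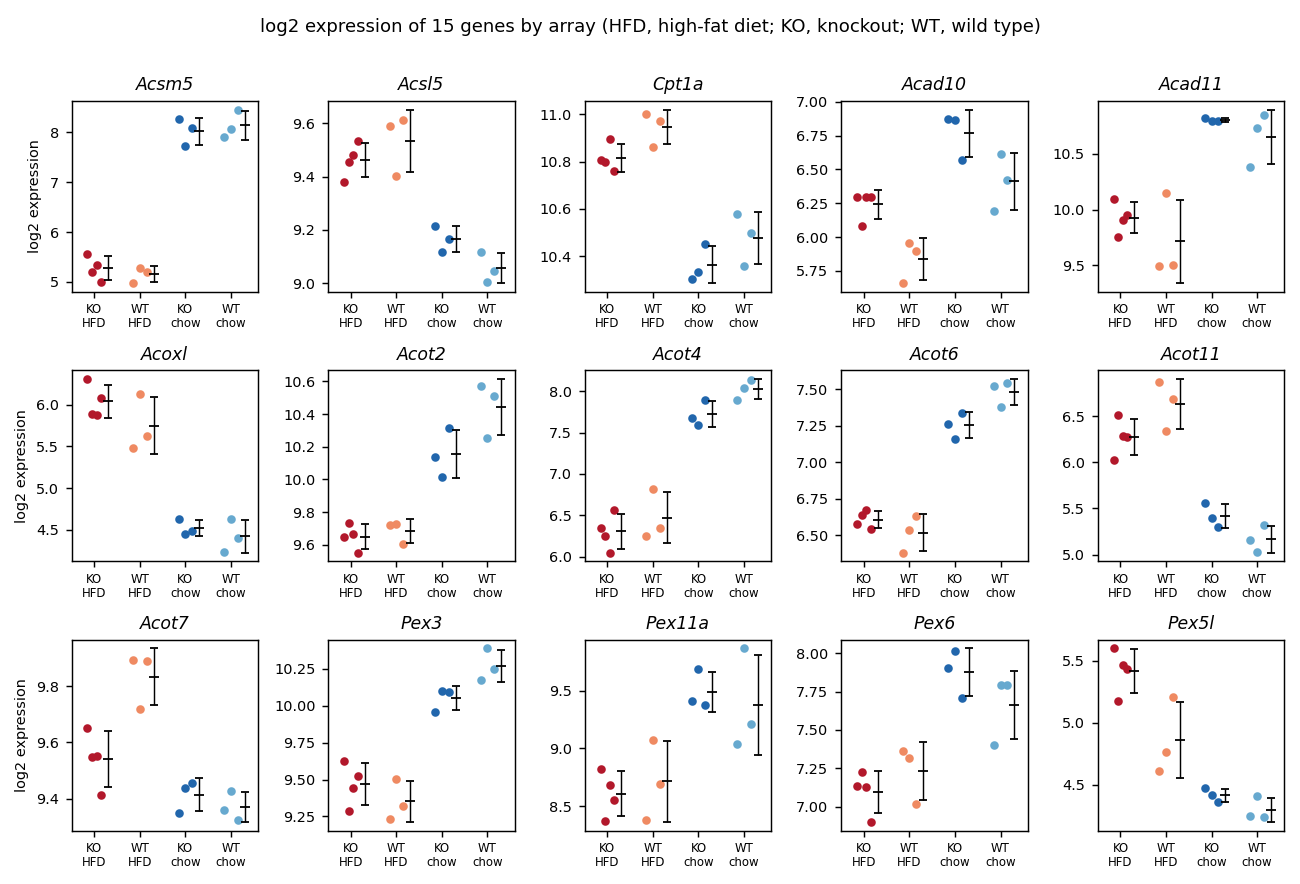
Log2 values on every array (points) of 15 of the genes, by group, with the group mean and SD beside the points. The high-fat points of Acsm5, Acot4, Acot6 and Pex3 lie below all chow points of their genotype, and those of Acoxl, Acot11, Cpt1a and Acsl5 above.

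RefSeq promoter windows (mouse build GRCm38.p6, from 250 bases before to 50 after a start) matched 45 of the 52 genes. They were searched on both strands for the direct repeat that PPAR receptors bind with RXR, which is AGGTCA, any 1 base (N) and AGGTCA again. No window held it exactly, where 0.0481% of 27025 genes had it. With at most 1 mismatch it was in 1 of the 45 (2.22%, against 0.644% of all genes) and with at most 2 in 3 of the 45 (6.67%, against 4.4%). Its half-site AGGTCA was in 10 of the 45 (22.2%), against 18.1% of all genes. The 3 genes were Acot12, Acot4 and Acox2, of which only Acot4 passed for diet. Acox2 missed the threshold in both genotypes, as given above. Bases just before the start follow for the strongest faller (Acsm5), a strong riser (Acoxl), the closest match to the repeat (Acot12) and the chromosome 12 cluster, of which some members passed for diet and others did not. Those of the cluster that did not pass were read at low levels, as given above. All are on the plus strand, with the match to the repeat in capitals where there is one. They lie at chr7:119526145-119526264, chr2:127854508-127854627, chr13:91741401-91741520, chr12:83987781-83987860, chr12:84009422-84009501, chr12:84038299-84038378, chr12:84052064-84052143 and chr12:84069244-84069323, in the order printed.
Acsm5: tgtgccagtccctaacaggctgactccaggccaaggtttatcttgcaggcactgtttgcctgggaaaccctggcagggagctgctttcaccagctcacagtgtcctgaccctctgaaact
Acoxl: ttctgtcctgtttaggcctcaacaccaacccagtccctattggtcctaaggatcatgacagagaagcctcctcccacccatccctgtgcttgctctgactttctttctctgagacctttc
Acot12: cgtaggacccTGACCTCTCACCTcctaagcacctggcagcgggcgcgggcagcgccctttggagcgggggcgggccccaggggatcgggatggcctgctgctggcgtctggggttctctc
Acot2: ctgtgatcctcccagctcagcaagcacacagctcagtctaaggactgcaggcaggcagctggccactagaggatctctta
Acot1: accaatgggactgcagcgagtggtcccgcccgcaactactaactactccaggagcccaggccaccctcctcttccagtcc
Acot4: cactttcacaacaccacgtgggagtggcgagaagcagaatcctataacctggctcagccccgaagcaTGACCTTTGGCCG
Acot3: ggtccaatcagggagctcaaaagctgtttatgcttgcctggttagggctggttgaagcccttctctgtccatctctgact
Acot5: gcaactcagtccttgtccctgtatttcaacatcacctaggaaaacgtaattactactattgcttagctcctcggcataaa
Counted from the start, the match in Acot12 has its first base at -110 and the match in Acot4 at -13, both on the minus strand. In Acsm5, the 4 other genes of the cluster printed here and Acoxl, no match with up to 2 mismatches was in the window searched. A match is a description of the letters and not a binding site.

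Of the 14 peroxins 1 rose and 7 fell in each genotype, where 14.5% of all genes rose and 19.7% fell in knockout mice and 17.7% rose and 18.1% fell in wild-type mice. Pex3, the membrane anchor with which Pex16 and Pex19 insert peroxisomal membrane proteins, read 9.62, 9.29, 9.44 and 9.52 on high-fat diet against 9.96, 10.10 and 10.09 on chow in knockout mice. In wild-type mice Pex3 read 9.23, 9.51 and 9.32 on high-fat diet against 10.17, 10.39 and 10.25 on chow. It fell by 0.58 ± 0.09 in knockout mice (adjusted p 0.000187) and by 0.92 ± 0.09 in wild-type mice (adjusted p 5.42e-06), and the diets were apart in both. Pex19, the carrier of these membrane proteins, fell by 0.40 ± 0.10 in knockout mice (adjusted p 0.00978) and 0.49 ± 0.11 in wild-type mice (adjusted p 0.00377). Pex16 read 11.25, 10.87, 11.01 and 10.81 on high-fat diet against 10.98, 11.19 and 11.16 on chow in knockout mice. Its wild-type values were 10.61, 11.23 and 10.73 on high-fat diet against 11.15, 11.36 and 11.09 on chow. The diets overlapped for Pex16 in both genotypes, with differences of -0.13 ± 0.14 (adjusted p 0.519) in knockout mice and -0.34 ± 0.15 (adjusted p 0.0921) in wild-type mice. The wild-type difference passed without high-fat replicate 2 and was 0.01 ± 0.17 with the hepatocyte covariate.

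Pex11a, which drives peroxisome division, read 8.82, 8.37, 8.68 and 8.55 on high-fat diet against 9.41, 9.68 and 9.37 on chow in knockout mice. In wild-type mice Pex11a read 8.38, 9.08 and 8.69 on high-fat diet against 9.04, 9.86 and 9.21 on chow. It fell by 0.88 ± 0.19 in knockout mice (adjusted p 0.00303), where the diets were apart, and by 0.66 ± 0.21 in wild-type mice (adjusted p 0.0228), where they overlapped and the call was lost without chow replicate 2, high-fat replicate 1 or high-fat replicate 3. Pex6, an ATPase that pulls the import receptor back out of the membrane, read 7.13, 7.22, 7.13 and 6.90 on high-fat diet against 7.90, 8.02 and 7.71 on chow in knockout mice. Wild-type values of Pex6 were 7.36, 7.32 and 7.02 on high-fat diet against 7.40, 7.79 and 7.79 on chow. The diets were apart in both genotypes, with falls of 0.78 ± 0.12 in knockout mice (adjusted p 0.00026) and 0.43 ± 0.13 in wild-type mice (adjusted p 0.02). The wild-type call of Pex6 was lost without chow replicates 2 or 3 or high-fat replicate 3. Pex26, its membrane anchor, and Pex10, a ubiquitin ligase subunit, fell in knockout mice, by 0.32 ± 0.10 (adjusted p 0.0201) and 0.42 ± 0.11 (adjusted p 0.00681). Their wild-type differences of -0.09 and -0.16 did not pass.

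Pex13, part of the docking complex, fell by 0.36 ± 0.11 in knockout mice (adjusted p 0.0266) and 0.53 ± 0.12 in wild-type mice (adjusted p 0.00367). The import receptor Pex5 fell in wild-type mice by 0.35 ± 0.12 (adjusted p 0.0382), as did Pex11g by 0.43 ± 0.11 (adjusted p 0.00739), while their knockout differences of -0.30 and -0.25 did not pass. In knockout mice the call of Pex13 was lost without any 1 of the 3 chow arrays or high-fat replicates 2 or 3, and that of Pex26 without chow replicates 2 or 3 or high-fat replicate 4. In wild-type mice the call of Pex5 was lost without chow replicates 2 or 3, high-fat replicates 1 or 3, or knockout high-fat replicate 3. Pex2, Pex7 and Pex14 passed in neither genotype. Against the others, Pex5l, a relative of Pex5 that binds HCN channels in neurons, rose. It read 5.60, 5.18, 5.47 and 5.44 on high-fat diet against 4.47, 4.42 and 4.36 on chow in knockout mice. In wild-type mice Pex5l read 4.62, 4.77 and 5.21 on high-fat diet against 4.25, 4.41 and 4.24 on chow. The diets were apart in both, with rises of 1.00 ± 0.13 in knockout mice (adjusted p 5.26e-05) and 0.57 ± 0.14 in wild-type mice (adjusted p 0.0058).

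Falls also outnumbered rises among genes of the same pathways outside these names, as they did over all genes (19.7% fallen and 14.5% risen in knockout mice, 18.1% and 17.7% in wild-type mice). Of 15 partner enzymes of mitochondrial fatty acid oxidation, 0 rose and 10 fell in each genotype by limma. At an unadjusted p under 0.05, 0 rose and 12 fell in knockout mice and 0 and 10 in wild-type mice. Named here from each list are the 4 that passed with the smallest p for diet in wild-type mice. Hsd17b10, a 3-hydroxyacyl-CoA dehydrogenase, changed by -0.82 ± 0.05 in knockout and -0.91 ± 0.06 in wild-type mice, and Echs1, the enoyl-CoA hydratase of the same cycle, by -0.73 ± 0.10 and -0.94 ± 0.10. Pccb, a subunit of propionyl-CoA carboxylase, changed by -1.04 ± 0.11 and -1.19 ± 0.11. The change of Acacb, which makes the malonyl-CoA that inhibits carnitine palmitoyltransferase 1, was -1.32 ± 0.18 and -1.82 ± 0.19. Of 39 other peroxisomal enzymes and transporters, 2 rose and 18 fell in each genotype. Pxmp2, a channel of the peroxisomal membrane, changed by -1.68 ± 0.11 in knockout and -1.68 ± 0.12 in wild-type mice, and Phyh, which starts the breakdown of phytanic acid, by -0.96 ± 0.08 and -1.30 ± 0.08. Abcd2, a transporter of very long-chain acyl-CoA, changed by -0.65 ± 0.12 and -0.96 ± 0.12, and Ech1, a dienoyl-CoA isomerase, by -0.57 ± 0.08 and -0.63 ± 0.08.

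Regulators of fatty acid oxidation fell in 11 of 17 cases in knockout mice and 12 of 17 in wild-type mice, and 1 rose in each. Pparg, the master regulator of fat cells, changed by -0.51 ± 0.08 in knockout and -0.69 ± 0.09 in wild-type mice, and the corepressor gene Nrip1 by -0.82 ± 0.13 and -0.95 ± 0.14. Prkaa1 and Prkaa2 encode the catalytic subunits of the energy sensor AMPK. Prkaa1 changed by -0.53 ± 0.05 and -0.71 ± 0.06 and Prkaa2 by -0.79 ± 0.12 and -1.101 ± 0.13. Ppara, the receptor PPARα, was added after its values were seen, and changed by -0.86 ± 0.18 and -1.12 ± 0.19. Of 14 genes of ketone body and acetyl-CoA handling, 2 rose and 4 fell in knockout mice and 2 rose and 5 fell in wild-type mice. Acss3, a short-chain acyl-CoA synthetase of mitochondria, changed by -1.73 ± 0.15 and -1.89 ± 0.16, and its relative Acss1 by 0.40 ± 0.12 and 0.60 ± 0.12. Acat1, the acetoacetyl-CoA thiolase, changed by -0.69 ± 0.11 and -0.78 ± 0.12, and Dbi, the acyl-CoA binding protein, by -0.18 ± 0.05 and -0.32 ± 0.05. Every change named in these 4 lists passed in both genotypes, knockout first, and no gene of the lists passed between genotypes.

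**Figure D4:**
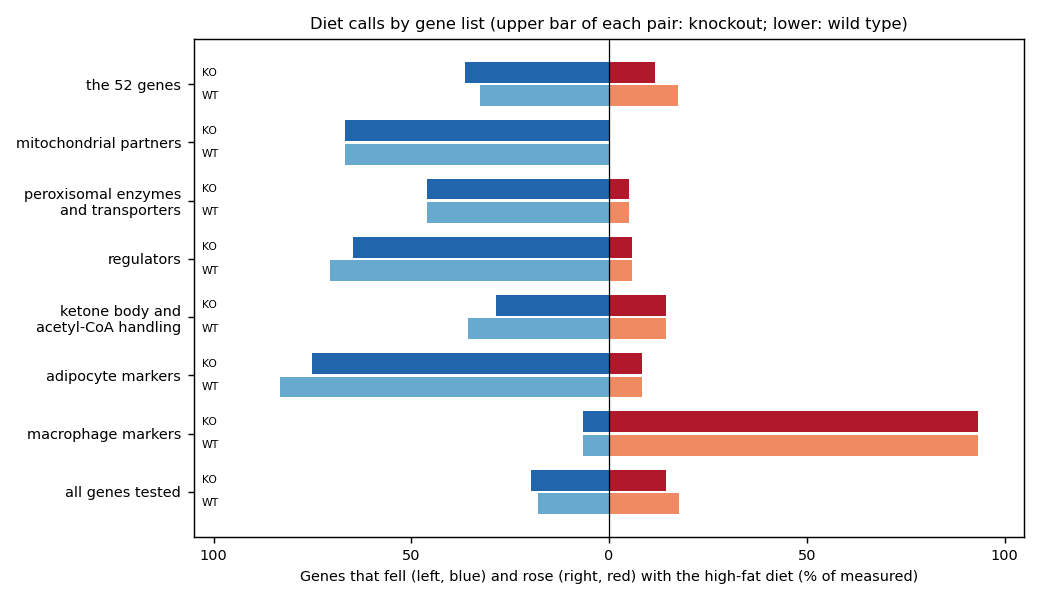
Percent of the measured genes of each list that rose (right, red) and fell (left, blue) with high-fat diet, with knockout above wild type in each pair and all genes tested at the bottom. Falls outnumber rises in the 52 genes, the 4 pathway lists and the adipocyte markers, and 14 of 15 macrophage markers rose.

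No genotype difference in these genes passed. On high-fat diet 0 of the 52 passed between knockout and wild-type mice, where 0.0425% of all genes did, and on chow 0 passed, where 0.133% did. At an unadjusted p under 0.05 in limma, 7 of the 52 and 1394 of 18820 genes differed on high-fat diet, and 6 and 1810 on chow. The 95% intervals of the difference, over all 52 genes, lay within -0.65 to 0.84 on high-fat diet and -0.64 to 0.69 on chow. Acot7 had the smallest p on high-fat diet, with a difference of -0.29 ± 0.07 (adjusted p 0.321), and every knockout array lay below every wild-type array on that diet. It passed, at -0.35, without wild-type high-fat replicate 2 (adjusted p 0.036). Pex5l followed with 0.56 ± 0.13 (adjusted p 0.361), the genotypes overlapping, and passed at 0.73 without wild-type high-fat replicate 3 (adjusted p 0.039). Over all alternatives that had a value, the adjusted p ran from 0.036 for Acot7 and 0.039 for Pex5l up to 0.912 for both. Acsm4 and Acad10 lay above wild type on every knockout array on high-fat diet, so that 3 of the 52 did not overlap, where 6.68% of all genes did not.

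Hepatocyte markers were lower in knockout mice on chow, 14 of 15 at an unadjusted p under 0.05 and 1 after adjustment. With their mean as a covariate 0 of the 52 passed between genotypes on either diet, as without it. On chow this mean was 6.10 to 6.14 in knockout and 7.30 to 8.29 in wild-type mice. It cannot be separated from genotype there, so this fit decides nothing about genotype on chow. On chow 7 of the 52 genes did not overlap between genotypes, where 14.9% of all genes did not. Acsl5, Acad12, Acad9, Acadl and Acads were higher in all knockout arrays, and Pex3 and Acot6 were lower. The smallest p belonged to Acad12, with a difference of 0.41 ± 0.13 (adjusted p 0.32), and Acot2, with -0.29 ± 0.09 (adjusted p 0.32). Acad10 differed by 0.40 ± 0.12 on high-fat diet (adjusted p 0.571) and 0.36 ± 0.13 on chow (adjusted p 0.385). Acad10, Acad12 and Acads share chromosome 5 with P2rx7, and in RefSeq's order of protein-coding genes they stand 21, 22 and 99 places from it. Acox3, Hadhb and Hadha are on the same chromosome, 608, 705 and 706 places away. By its name, the line B6.129P2-P2rx7tm1Gab/J carries the allele from another strain, and the allele and any sequence of that strain still beside it cannot be told apart here.

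The diet-by-genotype interaction, which asks whether the diet change differs between knockout and wild-type mice, passed for 0 of the 52 genes and 0% of all genes (limma). At an unadjusted p under 0.05 it named 6 of the 52 and 1829 of all genes. The smallest p belonged to Acot7, with -0.34 ± 0.10 (adjusted p 0.35), Acox3, with -0.33 ± 0.11 (adjusted p 0.381), and Acot11, with -0.60 ± 0.20 (adjusted p 0.383), so that their smaller differences by diet in knockout mice were not shown to differ from those in wild-type mice. The 95% intervals of the interaction lay within -1.04 to 0.85. Across the 52 genes the diet changes in the genotypes, which rest on separate arrays, correlated with Pearson's r of 0.951 and Spearman's rho of 0.931 (0.921 and 0.927 without Acsm5), against 0.918 and 0.801 across all genes. Genes share arrays and are not independent replicates. The sign was the same for 47 of 52 genes (90.4%), against 78.3% of all genes.

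Arrays of 1 group were not equal in these genes. Wild-type high-fat replicate 2 was the highest of its group for 36 of the 52 genes (69.2%), where it was highest for 39.3% of all genes. Its adipocyte marker mean was 11.51, against 11.05 and 11.12 on the other 2 arrays of the group. Its hepatocyte mean was also the highest, at 7.29 against 6.25 and 5.62. Among the knockout arrays on high-fat diet, replicate 1 was highest for 29 (55.8%, against 31.7% of all genes), with an adipocyte mean of 11.54 where the other 3 arrays had 11.21 to 11.33, and a hepatocyte mean of 6.49 where they had 5.47 to 5.96. Wild-type chow replicate 2 was highest for 30 (57.7%, against 36.0%) and replicate 1 lowest for 31 (59.6%, against 44.8%), with adipocyte means of 12.22 and 12.03. The hepatocyte means ran the other way in this group, at 7.62 on replicate 2 and 8.29, the highest, on replicate 1. Within these 3 groups the array with the highest adipocyte mean was also the one most often highest for the 52 genes. In knockout mice on chow replicate 2 was highest for 20 and replicate 3, with the highest adipocyte mean of 12.22, for 19. The macrophage mean was the lowest of its group on the array most often highest for the 52 genes. It was 10.54 on wild-type high-fat replicate 2 (10.90 and 10.93 on the others), 10.52 on knockout high-fat replicate 1 (10.65 to 10.76), 8.62 on wild-type chow replicate 2 (9.02 and 9.03) and 8.86 on knockout chow replicate 2 (9.17 and 9.28). The part of adipocyte, hepatocyte and macrophage content in this was not tested.

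**Figure D5:**
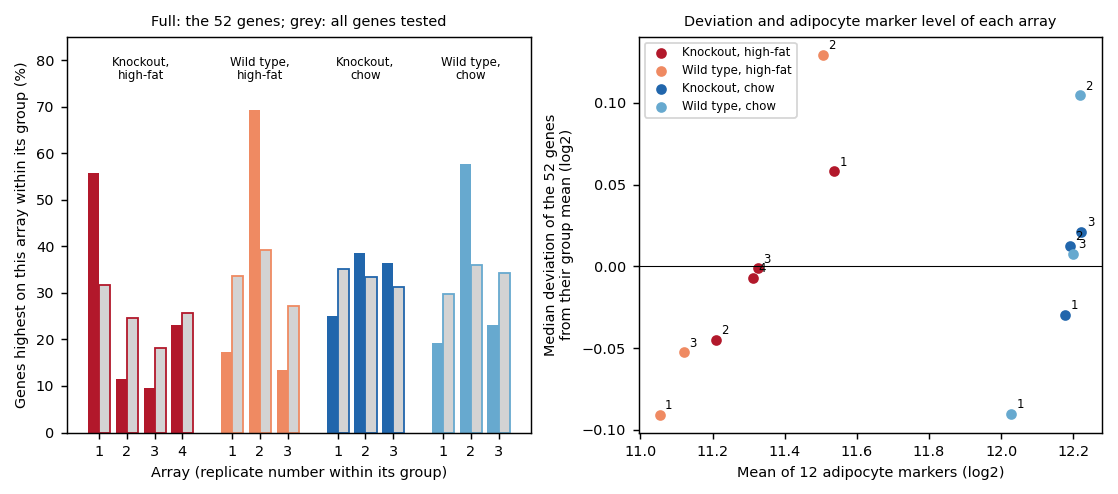
Left, percent of the 52 genes (full bars) and of all genes (grey bars) for which each array was the highest of its group. Right, the median deviation of the 52 genes from their group means (log2) against the mean of 12 adipocyte markers (log2), 1 point per array with its replicate number. Wild-type high-fat replicate 2 stands at 69.2% of the 52 genes and 39.3% of all genes, and at 11.51 for the markers.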

How the data were processed

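The authors deposited log2 values for each probe set on each array. Per the submitters' processing notes they came from RMA, or robust multi-array averaging; its version and the annotation's build are not given in the sources used here. The values ran from 1.70 to 13.86 over 35556 probe sets and were not normalised again. GEO's platform annotation paired 21218 probe sets with 1 gene symbol, 1881 with several and 12457 with none. Only the first kind was used, which left out 10 probe sets that name a gene of the list together with another. Where a gene had several (Acox3 and Hadhb among the 52), the one with the highest mean stood for it. Of 18820 genes, 18790 matched RefSeq by Entrez ID and 0 symbols differed. Genes that match the rule by name but have no such probe set were not analysed here.

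A linear model with 1 mean per group was fitted to all 13 arrays with limma 3.58.1 (R 4.3.3, package data.table, version 1.17.8) with variances moderated by an intensity trend. P-values were adjusted over all genes of a contrast by the Benjamini-Hochberg method, and 0.05 was the threshold. Values on every array are given, per role, for up to 4 genes that passed for diet, those with the larger changes, for the gene with the highest mean level, and for the 2 genes with the smallest p in each genotype comparison. Ucp1 and Ppara were picked outside this rule, with their values known. The members, lists and tests were chosen with earlier results of these data known. On simulated arrays with 200 of 18820 genes changed, the diet comparison in knockout mice recovered 86% of 1.5-fold and 95% of 2-fold changes, that in wild-type mice 76% and 96%, genotype under high-fat diet 74% and 96%, genotype under chow 74% and 95%, and the interaction 47% and 90%. The share of false calls was 8.1% and 6% for diet in knockout and wild-type mice. It was 4.5% and 9.6% for genotype under high-fat diet and chow, and 6.2% for the interaction. In the data 34.2% and 35.8% of genes passed for diet in knockout and wild-type mice, far more than were changed in the simulation. The simulated shares therefore need not hold for the diet comparisons, and changes under 1.5-fold were not simulated. The number of arrays limits the precision. Plots were made in Python 3.11.15 (matplotlib 3.10.9, numpy 2.4.6, pandas 2.3.3). Alternatives changed the variance model, scaling, dim-gene filter, probe set choice, array weights, replicate block, hepatocyte covariate, minimum fold and groups in the fit, and left out each array in turn.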

Additional observations from a re-analysis of the deposited data

Results flagged for a closer look

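Knockout mice on high-fat diet were the only group of 4 arrays, and groups of 3 were not tested for outlying arrays. In 6 of the 52 genes Dixon's ratio, the gap between 1 array and the nearest of the other 3 over the whole range, was above its 95% critical value. Chance flags about 1 in 20 groups, and the share over all genes was not computed. The log2 value of the outlying array was 4.02 for Acsl6, 4.25 for Acsm1, 7.2 for Cpt1c and 6.08 for Acad10 on replicate 2, 4.08 for Acsm4 on replicate 1 and 3.91 for Acot5 on replicate 4. The gap was 0.0149 for Acsl6 and 0.0376 for Acsm4, where the other 3 arrays had equal values so that the ratio was 1 whatever the gap, and 0.0694 to 0.21 for the other 4 genes. Nearly equal values on the other 3 arrays also raised the ratio of Cpt1c (7.0438, 7.0401 and 7.0401), Acad10 (6.2931, 6.2942 and 6.2942) and Acot5 (4.1176, 4.1227 and 4.1227). Of these 6 genes, 5 lay below the median level of all genes.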

How the results depend on the processing

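With a minimum of 1.5-fold, 3 rose and 6 fell in knockout mice and 2 rose and 7 fell in wild-type mice, and the share of all genes at this minimum is not given here. With the hepatocyte marker mean as a covariate 7 fell in wild-type mice, where this mean cannot be fully separated from diet. The other 10 had a larger SE and 5 of them a log2 change that moved by only 0.02 to 0.05. When the fit held no other groups than those compared, 10 fell in wild-type mice. With arrays centred on their medians, which moved the median over genes by -0.05 in wild-type mice, 8 rose and 23 fell there, where 9 rose and 17 fell as deposited; over all genes 15.3% rose and 23.1% fell so centred, against 17.7% and 18.1%. Leaving out 1 array at a time gave 5 to 8 rises and 15 to 21 falls with diet in knockout mice, 8 to 10 rises and 10 to 23 falls in wild-type mice, 0 to 1 each way between genotypes on high-fat diet, and 0 between genotypes on chow and in the interaction. The lone genes were Pex5l, higher, without wild-type high-fat replicate 3, and Acot7, lower, without wild-type high-fat replicate 2. The replicate numbers did not pair the samples (correlations of deviations from -0.298 to 0.222, with 3 of 12 over 0.1). With a replicate block, 6 rose and 16 fell in knockout mice and 9 rose and 17 fell in wild-type mice. Of 1184 recomputed values of 23 genes, 1090 kept direction and side of the threshold, 74 lost the call, 19 gained one and 1 changed sign: Pex16 in wild-type mice, at 0.012 with the hepatocyte covariate; the cause was not tested. A fit with only the groups compared is not defined for the interaction. Of the 52 genes, 17 lay below the median level of all genes (6.66), where signal over background limits what can be seen. Of those 17, 8 passed for diet in either genotype. The share among all genes below that level is not given here, so this count is not set against other dim genes.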
